A study of Mus musculus with 6 samples.

Results

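The genes described are 10 genes of the endoplasmic reticulum (ER) stress response, Hspa5, Ddit3, Atf3, Atf4, Xbp1, Herpud1, Dnajb9, Sdf2l1, Trib3 and Asns. They were chosen by their known roles, with earlier results of these data known. Each name had 1 row among the 14499 genes of the deposited table, and 10 of 10 were expressed highly enough to be tested. Liver RNA was sequenced from 2 groups of mice, wild type (WT_DDC) and a knockout of Arid1a restricted to hepatocytes (Arid1a_KO_DDC), with 3 libraries each. Mice of both groups were on a mixed C57Bl/6 and 129Sv background, were 10 weeks old, and had been injured for 2 weeks with DDC, a compound that blocks heme synthesis and injures hepatocytes and bile ducts. Both groups received DDC, so these data hold no uninjured liver to set the levels against. The driver of the deletion is not given in the sources used here. Whole liver was extracted, so the values mix hepatocytes with all other liver cells. Arid1a is not described as targeted in those other cells, and its deletion there was not checked. Fewer cells of a type cannot be told apart from less RNA per cell.

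Unfolded proteins in the ER engage 3 sensors, PERK, IRE1 and ATF6. PERK slows translation through eIF2alpha and so favours the translation of ATF4, IRE1 splices the Xbp1 mRNA into the form that encodes an active factor, and ATF6 is cleaved to release a transcription factor. Their targets are ER chaperones, degradation factors, amino acid enzymes and the pro-apoptotic factor CHOP, the product of Ddit3. Hepatocytes secrete much protein and use these pathways heavily. Because ATF4 is controlled mainly at translation and XBP1 at splicing, gene-level RNA values do not show the activity of either factor.

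The promoter windows of the genes were searched for exact matches to the response's binding motifs. Those of 4 genes are printed because they hold one other than a single CCAAT box. Inexact matches and sites outside the windows were not sought, so a motif not found here may still be present. Windows ran from 250 bases before to 50 bases after the RefSeq start on GRCm38.p6, all 10 genes matched, and both strands were searched. The ER stress response element (ERSE, CCAAT and CCACG with 9 bases between them, so that every ERSE also holds a CCAAT box) was found in Hspa5 and in 0.119% of 32851 mouse promoter windows. The related ERSE-II (ATTGG and CCACG with 1 base between them, which includes a CCAAT box on the other strand) was found in Herpud1 and in 0.0365% of windows. The composite site of C/EBP and ATF factors, TTGCATCA, was found in Herpud1 and Atf3 and in 0.895% of windows, and TGATGAAAC, the amino acid response site of Asns, in Asns and 0.247% of windows. TGACGTG, the core of the unfolded protein response element, was found in Hspa5 and in 2.01% of windows. The full CRE core, TGACGTCA, was in 0 of the 10 windows and in 1.79% of all, and a CCAAT box in 7 of the 10 and in 37.4% of all. In the stretches printed 5′ to 3′ along each gene's strand, capitals mark these motifs other than single CCAAT boxes. The stretch of Hspa5 (chr2:34771913-34772063, plus strand) has the ERSE at bases -65 to -47 from the start. That of Herpud1 (chr8:94386297-94386407, plus strand) has the ERSE-II at -52 to -42 and the composite site at -112 to -105. Those of Atf3 (chr1:191183416-191183463, minus strand) and Asns (chr6:7693204-7693252, minus strand) have their sites at -110 to -103 and -23 to -15. The Atf3 stretch belongs to a start inside the annotated span of the gene (chr1:191170296-191218039), not to the upstream end of that span.
Hspa5: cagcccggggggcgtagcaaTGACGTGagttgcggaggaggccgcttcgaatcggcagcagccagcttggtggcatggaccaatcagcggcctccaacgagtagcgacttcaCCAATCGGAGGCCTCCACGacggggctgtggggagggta
Herpud1: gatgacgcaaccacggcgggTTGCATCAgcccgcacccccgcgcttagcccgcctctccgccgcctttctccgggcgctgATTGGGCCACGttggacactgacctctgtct
Atf3: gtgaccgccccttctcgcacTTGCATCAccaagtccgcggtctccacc
Asns: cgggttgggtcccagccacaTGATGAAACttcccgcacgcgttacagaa

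Whether the 3 libraries of a group are from 3 mice is not stated, and the p-values cover only library-to-library spread, which may be technical. Levels are in FPKM, a fragment count scaled to transcript length and library size. Between 11280 and 11712 genes per library reached 1 FPKM, and the number of fragments is unknown. Alb, the main hepatocyte secretory transcript, was between 26589 and 34012 FPKM. Arid1a was between 5.48 and 7.85 FPKM in wild-type and between 3.81 and 6.61 FPKM in knockout libraries, but its gene-level value also covers exons outside the deletion and cells other than hepatocytes and checks no label. Replicate 1 of both groups (library numbers L0566 and L0567) stood apart from the other libraries (L0602 to L0605). The Y-linked Ddx3y was at 0.0527 and 0.0227 FPKM there, against 9.27 to 11.3 FPKM in the others. Eif2s3y, also Y-linked, was at 0.190 and 0.0410 FPKM against 22.4 to 26.6 FPKM. Sex and library number therefore cannot be told apart in this split. This split is balanced over genotype, and values within it are given where they differ. All differences are knockout minus wild type on the scale log2(FPKM + 1), tested with limma and Benjamini-Hochberg adjustment over 11839 genes.

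None of the 10 genes differed between knockout and wild-type livers beyond the spread of the libraries. In limma 0 of 10 passed an adjusted p of 0.05, beside 0.490% of all genes tested. Without adjustment, p was under 0.05 for 0 genes in either direction, beside 4.65% higher and 6.50% lower among all genes. Knockout and wild-type values overlapped for all 10, whereas 7.09% of genes tested were higher and 9.56% lower without overlap. Of the 10 differences 5 were positive and 5 negative, with a median of -0.02, beside 0.0034 over all genes. Over the alternatives that tested all 10 this median ran from -0.16 to 0.11, with 2 to 6 genes positive. They ran from -0.39 (Asns) to 0.34 (Ddit3), and their adjusted p-values in limma from 0.468 to 0.848. Exact two-sided permutation tests gave p between 0.2 and 0.7, and 3 against 3 libraries cannot give less than 0.1.

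**Figure D1:**
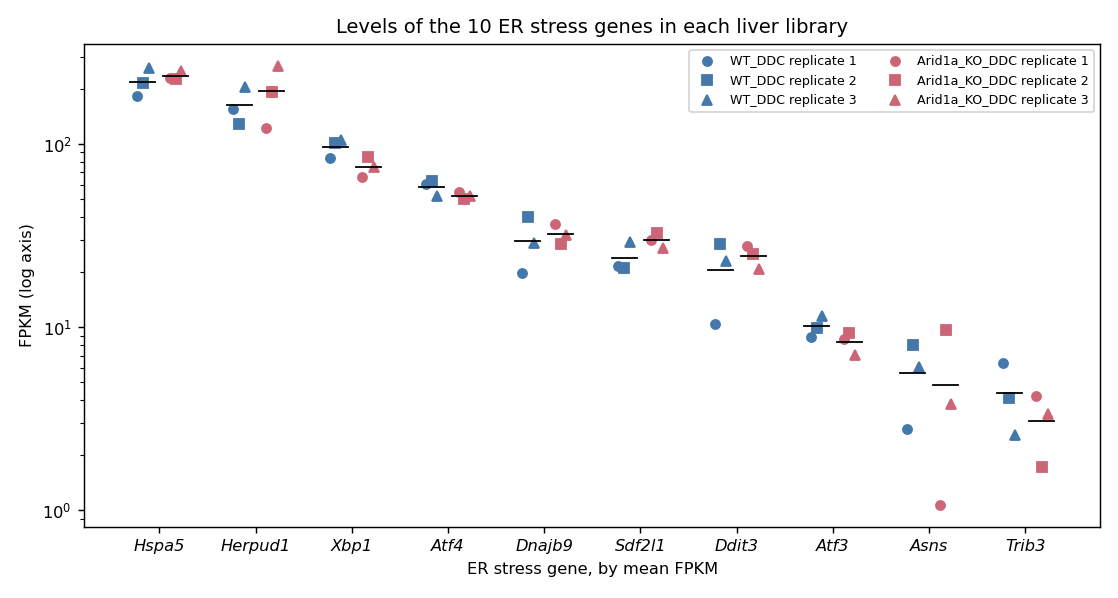
FPKM on a log axis of the 10 genes, ordered by mean level, in each of the 3 WT_DDC (blue) and 3 Arid1a_KO_DDC (red) libraries, with black bars at group means. The genotypes overlap for every gene, Hspa5 lies between 184 and 259 FPKM, and Asns spreads from 1.07 to 9.62 FPKM.

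The 10 transcripts spanned a wide range of levels per length. Hspa5 had the highest mean over the 6 libraries, 227 ± 26.8 FPKM (SD, n = 6), followed by Herpud1 at 178 ± 54.5 FPKM, with Hspa5 above Herpud1 in 5 of 6 libraries. Xbp1 at 86.0 ± 15.2 FPKM and Atf4 at 55.4 ± 5.06 FPKM came next. The ranges of Herpud1 and Xbp1, of Xbp1 and Atf4, and of Atf4 and Dnajb9 did not overlap, and those of all other neighbours in this order did. Below them stood Dnajb9 (30.9 ± 7.07), Sdf2l1 (27.0 ± 4.71) and Ddit3 (22.6 ± 6.60 FPKM), and then Atf3 (9.21 ± 1.49), Asns (5.22 ± 3.25) and Trib3 (3.74 ± 1.61 FPKM). Hspa5 exceeded 96.2% of all tested genes in mean level and Trib3 30.0% of them.

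Hspa5, Sdf2l1 and Dnajb9, the chaperone and co-chaperones among the 10 genes, had positive differences that did not pass the test. Hspa5 (ENSMUSG00000026864, chr2:34771970-34777547) encodes BiP, the HSP70 chaperone that holds the sensors inactive until unfolded proteins draw it away. Its levels were 184, 214 and 259 FPKM in wild-type replicates 1 to 3 and 229.7, 226 and 250.1 FPKM in the knockout. All 3 knockout values lay within the wild-type range, and the means were 219 ± 37.9 and 235 ± 12.99 FPKM (SD, n = 3 libraries each). The log2 difference was 0.11 (SE 0.16, 95% interval -0.28 to 0.51, limma adjusted p = 0.836), and it was -0.0043 without WT_DDC replicate 1.

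Sdf2l1 (ENSMUSG00000022769, chr16:17130138-17132383) encodes a soluble partner of ER co-chaperones and an ATF6 target. It was at 21.7, 21.1 and 29.1 FPKM in wild-type and at 30.0, 32.9 and 27.1 FPKM in knockout libraries. Only wild-type replicate 3 reached the knockout range, and the log2 difference was 0.32 (SE 0.17, 95% interval -0.07 to 0.72, limma adjusted p = 0.537). Dnajb9 (ENSMUSG00000014905, chr12:44205559-44210326) encodes ERdj4, a J-protein that recruits BiP to IRE1 and is induced through XBP1. Its levels were 19.7, 39.9 and 28.8 FPKM in wild type and 36.7, 28.6 and 31.8 FPKM in the knockout. The lowest and the highest library were both wild type, and the difference was 0.18 (SE 0.26, 95% interval -0.43 to 0.79, limma adjusted p = 0.835). It was -0.07 without WT_DDC replicate 1.

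Herpud1, the degradation factor among the 10, varied widely within each genotype. Herpud1 (ENSMUSG00000031770, chr8:94386438-94395377) encodes an ER membrane protein that organises the ubiquitin ligase complex for misfolded proteins, and its window holds the ERSE-II and the composite site printed above. It was at 155, 128 and 205 FPKM in wild type and at 123, 192 and 267 FPKM in the knockout. Knockout replicate 1 was the lowest of all libraries and knockout replicate 3 the highest. The difference of 0.21 (SE 0.31, 95% interval -0.53 to 0.94, limma adjusted p = 0.842) became -0.06 without Arid1a_KO_DDC replicate 3. Gm15890, annotated antisense to it, was between 0.449 and 2.502 FPKM, and whether the authors' counting used strand is not given in the sources used here.

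Of the 4 transcription factors, Xbp1 had the smallest p of all 10 genes. Xbp1 (ENSMUSG00000020484, chr11:5520659-5525893) encodes the factor activated by IRE1 splicing. It was at 83.7, 102 and 105.4 FPKM in wild type and at 66.0, 84.7 and 74.8 FPKM in the knockout, so that knockout replicate 2 lay just above wild-type replicate 1. The means were 96.9 ± 11.6 and 75.2 ± 9.35 FPKM (SD, n = 3), with a log2 difference of -0.36 (SE 0.16, 95% interval -0.74 to 0.01, limma adjusted p = 0.468). The sign was negative under all 17 alternatives, with values from -0.46 to -0.27, and the gene passed the threshold under 0 of them. Plasma cells also express Xbp1 strongly. The summed level of 12 B and plasma cell markers was 1873, 5079 and 7408 FPKM in wild type. In knockout replicates 1 to 3 it was 121, 10260 and 125 FPKM. Of these sums, Sdc1 alone was 118, 75.8 and 101 FPKM in wild type and 91.5, 79.9 and 91.4 FPKM in the knockout. The part of these cells in the Xbp1 values was not tested.

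Atf4 was the steadiest of the 10 transcripts. Atf4 (ENSMUSG00000042406, chr15:80255184-80257541) encodes the factor whose translation rises when eIF2alpha is phosphorylated. It was at 60.3, 62.7 and 52.2 FPKM in wild type and at 54.9, 49.99 and 52.1 FPKM in the knockout. The highest 2 values were wild type, the other 4 lay close together, and the difference was -0.15 (SE 0.13, 95% interval -0.46 to 0.16, limma adjusted p = 0.716). Its pooled within-group SD of 0.11 log2 units was below that of most genes tested, with 9.13% of genes having a smaller SD.

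Ddit3 (ENSMUSG00000025408, chr10:127290774-127296288) encodes CHOP, which promotes apoptosis under lasting ER stress. It was at 10.4, 28.4 and 23.1 FPKM in wild type and at 27.7, 25.1 and 20.8 FPKM in the knockout. Wild-type replicate 1 was low, and the other 5 libraries lay between 20.8 and 28.4 FPKM. The difference of 0.34 (SE 0.35, 95% interval -0.49 to 1.16, limma adjusted p = 0.767) was -0.07 without WT_DDC replicate 1 and -0.16 when only L0602 to L0605 were used. Ddit3 overlaps Mars on the opposite strand, which encodes methionyl-tRNA synthetase and was between 29.3 and 46.6 FPKM, so that reads of the pair cannot be told apart if strand was not used. Mars was lowest in wild-type replicate 1, at 29.3 FPKM, whereas Gm4189, also on the opposite strand, was highest there, at 2.68 FPKM against 1.09 to 2.63 FPKM. A protein-coding gene model also named Ddit3 (ENSMUSG00000116429) overlaps it on the same strand and has no deposited values. The part of these overlapping genes in the Ddit3 values was not tested.

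Atf3 (ENSMUSG00000026628, chr1:191170296-191218039) encodes a stress-induced repressor downstream of ATF4 that is also an immediate early gene. It was at 8.87, 9.91 and 11.5 FPKM in wild type and at 8.63, 9.28 and 7.04 FPKM in the knockout. Of the knockout values 2 lay below the wild-type range, and the difference was -0.25 (SE 0.16, 95% interval -0.64 to 0.13, limma adjusted p = 0.614). It stayed negative under all 17 alternatives, from -0.36 to -0.15.

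The ATF4 targets Trib3 and Asns were the least abundant of the 10 transcripts. Trib3 (ENSMUSG00000032715, chr2:152337422-152344032) encodes a pseudokinase induced by ATF4 and CHOP that damps their activity. It was at 6.42, 4.14 and 2.59 FPKM in wild type and at 4.19, 1.73 and 3.36 FPKM in the knockout. Replicate 1 was the highest library of each genotype, and the difference between genotypes was -0.38 (SE 0.34, 95% interval -1.18 to 0.42, limma adjusted p = 0.721). It was -0.64 without WT_DDC replicate 3, -0.58 without Arid1a_KO_DDC replicate 1, -0.12 without WT_DDC replicate 1 and -0.11 without Arid1a_KO_DDC replicate 2. Asns (ENSMUSG00000029752, chr6:7675169-7693254) encodes asparagine synthetase, a reporter of amino acid shortage that ATF4 induces. It was at 2.78, 8.002 and 6.05 FPKM in wild type and at 1.07, 9.62 and 3.82 FPKM in the knockout. Replicate 1 was the lowest library of each genotype, and the extremes of all 6 libraries, 8.96-fold apart, were both knockout. The difference of -0.39 (SE 0.60, 95% interval -1.83 to 1.04, limma adjusted p = 0.848) became 0.20 without Arid1a_KO_DDC replicate 1 and -0.98 without Arid1a_KO_DDC replicate 2.

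**Figure D2:**
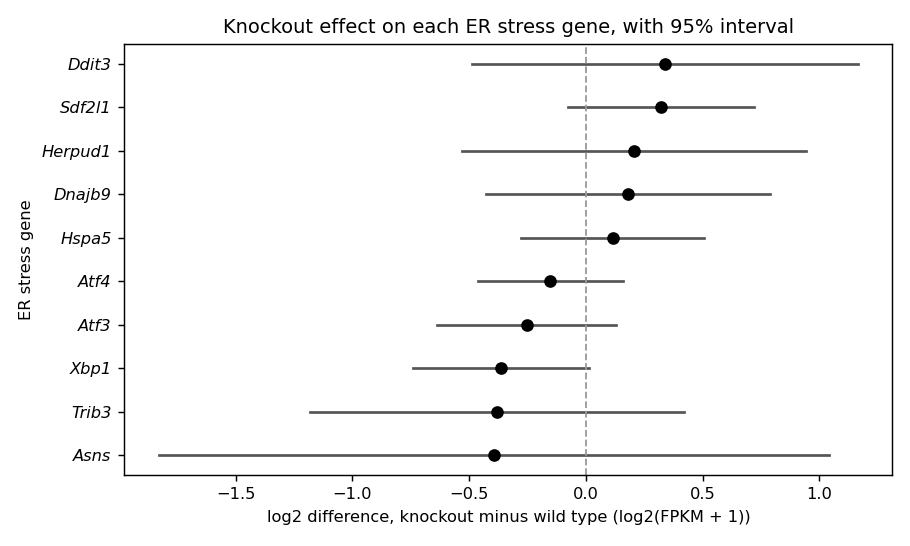
Difference of each gene between knockout and wild type in log2(FPKM + 1), with points at the limma estimate and lines for the 95% interval (n = 3 libraries per group, dashed line at no difference). All 10 intervals include 0, from the narrowest for Atf4 (-0.46 to 0.16) to the widest for Asns (-1.83 to 1.04).

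The intervals limit what could have been missed. For Hspa5, Atf4, Xbp1, Atf3, Sdf2l1 and Dnajb9 they do not reach a change of 1 log2 unit in either direction. That of Herpud1 does not either, with an upper bound of 0.94. For Ddit3 a rise of up to 1.16, for Trib3 a fall to -1.18 and for Asns changes in both directions beyond 1 unit lie within the interval. These are intervals for single genes and are not adjusted for their number. They rest on the spread between libraries, which may be technical, and on log2(FPKM + 1), which understates changes of low genes.

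The 10 transcripts did not all move in the same direction across the libraries. Wild-type replicate 1 was below the gene's own mean for 8 of 10 genes and was the lowest library for Hspa5, Ddit3 and Dnajb9. Wild-type replicates 2 and 3 were above that mean for 7 of 10 genes each. Knockout replicates 1 to 3 were above it for 5, 6 and 4 genes. Knockout replicate 1 was the lowest for Xbp1, Herpud1 and Asns. Atf3, Xbp1 and Hspa5 were highest in wild-type replicate 3, whereas Ddit3, Dnajb9 and Atf4 were highest in wild-type replicate 2. The pooled within-group SD was 0.95 log2 units for Asns, larger than that of 97.6% of genes tested, and 0.53 for Ddit3, 0.50 for Trib3 and 0.46 for Herpud1, beside a median of 0.24 over all genes. The 2 ATF4 targets differed from each other: Asns in replicate 1 was on average 1.43 log2 units under the other libraries (a difference of -1.43), and Trib3 was 0.69 above them.

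**Figure D3:**
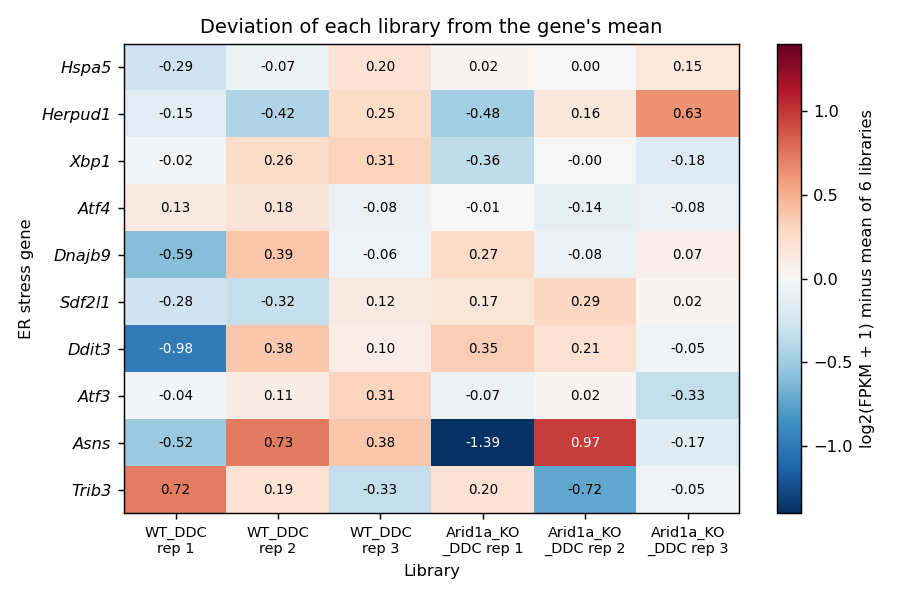
Heat map of log2(FPKM + 1) minus the gene's mean over the 6 libraries, with genes in rows and libraries in columns (red above, blue below the mean). Wild-type replicate 1 is low for Ddit3 (-0.98) and Dnajb9 (-0.59), and Asns runs from -1.39 in knockout replicate 1 to 0.97 in knockout replicate 2.

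The difference between genotypes was also computed within the library-number split, and for none of the 10 genes did it differ between the 2 parts by the test. In replicate 1, with 1 library per genotype, Ddit3 was 1.33 and Dnajb9 0.87 log2 units higher in the knockout, and in replicates 2 and 3 their differences were -0.16 each. As an interaction term in limma this came to 1.49 for Ddit3 (SE 0.30, adjusted p = 0.413) and 1.03 for Dnajb9 (SE 0.34, adjusted p = 0.532). Neither passed, and 0 genes of the 11839 tested did, with only 1 library per genotype in replicate 1. Xbp1 had nearly equal differences in the 2 parts, -0.34 in replicate 1 and -0.37 in replicates 2 and 3, and so had Atf4 with -0.13 and -0.16.

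The genes closest in pattern were sought by the root mean square difference of centred log2(FPKM + 1) over the 6 libraries, among 7357 other genes with a mean of at least 5 FPKM. For Hspa5 they were Ubap2l (0.039), Rpl3-ps1 (0.049), a ribosomal protein pseudogene whose reads may be shared with its parent gene, and Smarcb1 (0.051), a subunit of the BAF complex to which Arid1a belongs. For Ddit3 they were Igsf23 (0.12), Rfxap (0.13) and Rpp38 (0.13). Igsf23 was at 11.2 FPKM in wild-type replicate 1 and between 24.0 and 32.6 FPKM in the others. Hspa5 itself varied only 1.41-fold over the 6 libraries, and how many genes come this close by accident was not tested.

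Among other genes of the pathway, 1 chaperone passed in limma, where 0.490% of all genes tested passed in either direction. Of 23 ER chaperones and folding enzymes, all tested, 1 was called higher and 0 lower, and 20 had a positive difference. The median was 0.16, beside 0.0034 over all genes, of which 49.4% were negative. Fkbp11, a peptidyl-prolyl isomerase of secretory cells, was at 38.4, 40.1 and 38.8 FPKM in wild type and at 68.5, 73.5 and 76.1 FPKM in the knockout. The groups were far apart, with a log2 difference of 0.88 (SE 0.12) at an adjusted p of 0.0402 in limma. The call held under 9 of 17 alternatives and was lost in the replicate block, in the 4 libraries L0602 to L0605 and with any library left out, with adjusted p-values up to 0.186 and differences of 0.81 to 0.92. Plasma cells also express Fkbp11. The B and plasma cell markers summed to 121, 10260 and 125 FPKM in knockout replicates 1 to 3, where Fkbp11 had the 3 values given. Of these sums, Sdc1 alone was 91.5, 79.9 and 91.4 FPKM. The part of these cells in the Fkbp11 difference was not tested. Pdia6, a disulfide isomerase, went from 124 ± 8.66 to 192 ± 3.97 FPKM without overlap (0.63, SE 0.13, limma adjusted p = 0.121) and did not pass. Ero1l, the oxidase that recharges such isomerases, had a difference of 0.25 (limma adjusted p = 0.543). The positive share was 18 to 21 of 23 over the alternatives that tested all of them. Beside Pdia6 and the genes without overlap named below, 7.09% of all genes tested were higher and 9.56% lower without overlap.

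Chaperones with and without an ERSE match in the promoter window had similar medians. Of 20 chaperone genes with a promoter entry 7 held an ERSE, and their median difference was 0.15 (-0.14 to 0.63). The 13 without an ERSE match, Fkbp11 among them, had a median of 0.16 (-0.05 to 0.88). Dnajb11, also among these 13, held an ERSE-II (difference 0.23). Sites outside the window and inexact matches were not sought. The 4 sites shown belong to the ERSE-bearing chaperones with the 3 highest differences and the lowest, and serve for comparison with that of Hspa5. They are Pdia6 (chr12:17266491-17266509, plus strand, difference 0.63), Creld2 (chr15:88819520-88819538, minus strand, 0.53), Canx (chr11:50325800-50325818, minus strand, 0.41) and Calr (chr8:84847075-84847093, plus strand, -0.14). Capitals mark the 2 fixed parts, which are the same in all, and the 9 bases between them differ.
Hspa5: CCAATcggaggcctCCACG
Pdia6: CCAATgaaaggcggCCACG
Creld2: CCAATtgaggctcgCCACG
Canx: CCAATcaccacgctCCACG
Calr: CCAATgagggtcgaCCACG

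Genes of ER translocation and the early secretory pathway, which include glycosylation, export and retrieval factors, were mostly above zero in difference, with 0 of 27 past the threshold in limma. Of these 27, 23 were positive with a median of 0.15 (0.09 without Arid1a_KO_DDC replicate 3). At an unadjusted p under 0.05 in limma 4 were higher, beside 4.65% of all genes. Ddost, a subunit of the oligosaccharyltransferase, was at 54.0 ± 0.922 and 69.0 ± 1.29 FPKM without overlap (0.35, SE 0.11, limma adjusted p = 0.320). Ssr1, of the translocon-associated complex, and Srprb, of the signal recognition particle receptor, had differences of 0.37 and 0.39 (limma adjusted p = 0.379 and 0.442). ER-associated degradation genes had a median of 0.04 over 20 members (-0.02 without Arid1a_KO_DDC replicate 3), with 0 past the threshold in limma. An unadjusted p under 0.05 was found for 0 of them, beside 4.65% higher and 6.50% lower among all genes. Ube2j1 and Edem2, which ubiquitinate and trim misfolded proteins, were at -0.20 each (limma adjusted p = 0.589 and 0.602), and Ubxn4 was at 0.25 (limma adjusted p = 0.629).

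The sensors themselves did not pass either. Of 14 sensors and transducers 0 passed in limma and 1 was higher at an unadjusted p under 0.05, beside 4.65% of all genes. The list median of -0.09 was close to 0, with 7 of 14 negative, without WT_DDC replicate 2 or Arid1a_KO_DDC replicate 1. Eif2ak2, the interferon-induced kinase PKR that also phosphorylates eIF2alpha, was at 3.72 ± 1.25 and 5.69 ± 0.0864 FPKM without overlap (0.54, SE 0.20, limma adjusted p = 0.391). Atf6 was at 6.57 ± 0.953 and 5.07 ± 0.409 FPKM without overlap (-0.31, SE 0.15, limma adjusted p = 0.493), and Eif2ak1, the heme-regulated kinase of eIF2alpha, had a difference of -0.21 (limma adjusted p = 0.614). Ern1 and Eif2ak3, the genes of IRE1 and PERK, are named after their values were seen. Ern1 had a difference of 0.24, without overlap, and Eif2ak3 of -0.14 (limma adjusted p = 0.699 and 0.799).

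Other ATF4 and CHOP targets went in both directions. Of 19 tested, 9 were positive and 10 negative, the median was -0.05 and 0 passed in limma. At an unadjusted p under 0.05, 1 gene was higher and 1 gene lower, beside 4.65% and 6.50% of all genes. The median was 0.12 without WT_DDC replicate 2 and 0.02 without Arid1a_KO_DDC replicate 1. Sesn2, a stress-induced inhibitor of mTORC1, was at 2.84 ± 0.683 and 4.83 ± 0.777 FPKM without overlap (0.61, SE 0.18, limma adjusted p = 0.291). Jdp2, a bZIP repressor, had a difference of -0.51 (limma adjusted p = 0.421). Amino acid synthesis and tRNA charging genes, to which Asns is related, had a median of -0.04 over 20 tested (0.02 without Arid1a_KO_DDC replicate 1). In limma 0 passed the threshold. Beside 6.50% of all genes, 1 of the 20 was lower at an unadjusted p under 0.05. That gene was Pck2, the mitochondrial PEP carboxykinase, at -0.49 (SE 0.14, limma adjusted p = 0.278). Cbs, of cysteine synthesis, was at -0.46 and Shmt2, of mitochondrial serine use, at 0.43 (limma adjusted p = 0.477 and 0.481).

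**Figure D4:**
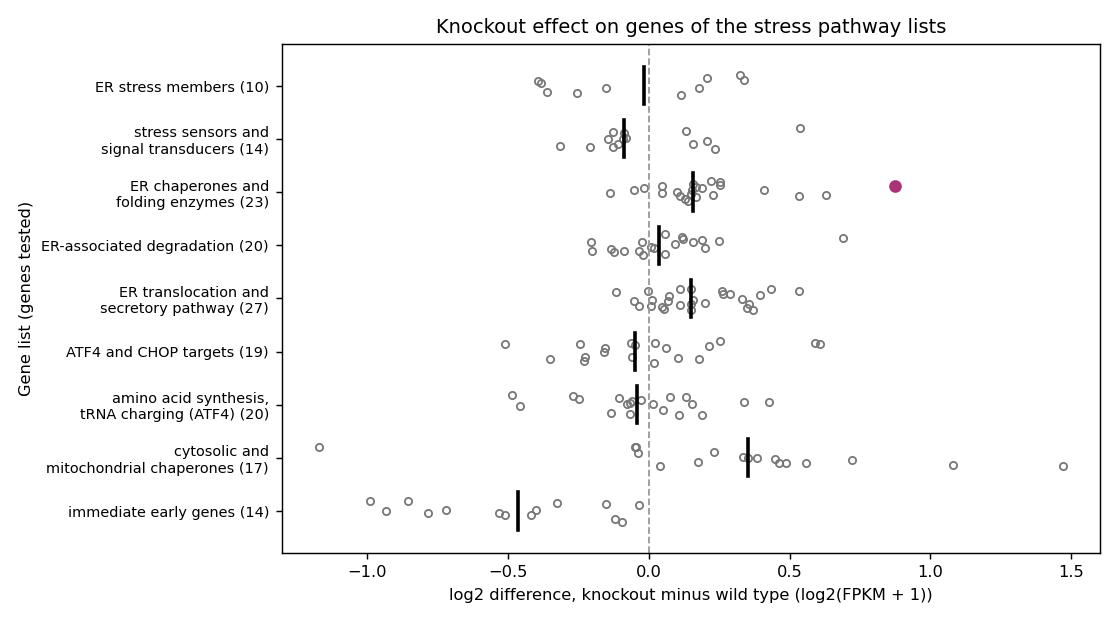
Differences between knockout and wild type in log2(FPKM + 1) for each tested gene (circles) of the 10 ER stress genes and the related lists, with the list median as a black bar and the number of genes in brackets. Fkbp11, at 0.88 among the ER chaperones, is the filled point past the threshold, and all 14 immediate early genes lie below 0.

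Chaperones outside the ER and immediate early genes were compared because they respond to other stresses and to handling. Of 17 cytosolic and mitochondrial chaperones 13 were positive with a median of 0.35, and 0 passed in limma. An unadjusted p under 0.05 was found for 3, all higher, beside 4.65% of all genes. The median was 0.18 without WT_DDC replicate 1 and 0.19 without Arid1a_KO_DDC replicate 3. Hspe1 and Hspd1, the mitochondrial chaperonin pair, had differences of 0.56 and 0.34 (limma adjusted p = 0.357 and 0.423). Hspa1b, an inducible HSP70, was at 0.641, 4.13 and 6.27 FPKM in wild type and at 5.76, 9.97 and 16.6 FPKM in the knockout (1.47, SE 0.59, limma adjusted p = 0.430). Its groups overlapped, and the difference was 0.84 without WT_DDC replicate 1. All 14 immediate early genes were negative, with a median of -0.46 and 0 past the threshold in limma. At an unadjusted p under 0.05, 5 were lower, beside 6.50% of all genes. Over the alternatives 12 to 14 of the 14 were negative. Fosb was at 2.58 ± 0.476 and 0.793 ± 0.0945 FPKM (-0.99, SE 0.16, limma adjusted p = 0.0738), Fos had a difference of -0.93 and Junb of -0.86 (limma adjusted p = 0.130 and 0.136). These 3 genes did not overlap between the groups. Atf3, which is often induced with them, had a difference of -0.25, and the part of handling in either was not tested.

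Most markers of other liver cells had lower levels in the knockout, and few passed the test. Macrophage markers were negative in 13 of 13 tested (median -0.60), with C1qb at -0.60 and C1qa at -0.61. In limma 0 passed the threshold and 6 were lower at an unadjusted p under 0.05, beside 6.50% of all genes. The macrophage markers summed to 1123 to 1356 FPKM in wild type and 642 to 989 FPKM in the knockout. Stellate and fibroblast markers, led by Dcn (-0.74) and Col3a1 (-0.23), summed to 230.0 to 327 and 152 to 248.9 FPKM, and 10 of 12 were negative. Endothelial markers, led by Stab1 (-0.61) and Clec4g (-0.65), summed to 74.7 to 121 and 42.9 to 104.2 FPKM, and 9 of 9 tested were negative. Biliary markers had 8 of 10 negative and 2 called lower, beside 0.490% of all genes called in either direction. These 2 were Cldn4 (-1.42) and Krt23 (-1.99), named after their values were seen (limma adjusted p = 0.0386 and 0.0447). Both calls were lost with a pseudocount of 5, with no filter, in the replicate block, and on leaving out WT_DDC replicate 2, WT_DDC replicate 3 or any knockout library. The most abundant biliary markers were positive, with Spp1 at 0.28 and Prom1 at 0.17, and the list summed to 160.5 to 417 and 230.1 to 436 FPKM. T and NK cell markers, led by Trac (-1.80) and Nkg7 (-1.05), summed to 16.98 to 24.6 and 3.45 to 18.2 FPKM, with Trac listed at 0 in knockout replicate 3. Hepatocyte markers had 9 of 16 positive and 7 negative, with Alb at 0.10 and Apoa1 at 0.15, and summed to 52197 to 55827 and 52883 to 66801 FPKM. Among the negative ones, named after their values were seen, were Cyp2e1 at -1.29 and Cyp3a11 at -0.60, the latter without overlap, and 0 of 16 passed in limma. The median of 0.04 had no stable sign: it was -0.18 without Arid1a_KO_DDC replicate 3, with 12 of 16 negative, -0.04 without WT_DDC replicate 2, -0.11 with quantile normalization and 0.21 without Arid1a_KO_DDC replicate 1. Of the B and plasma cell markers 11 of 12 were negative, with Igkc at 1478 to 5412 FPKM in wild type and 17.6, 7538 and 22.5 FPKM in the knockout, and Ighg1 at 8.80 to 887 FPKM and 1.22, 2194 and 2.08 FPKM. Without Arid1a_KO_DDC replicate 3 the medians were -0.39 for macrophage, -0.28 for stellate, -0.25 for endothelial and -0.28 for T and NK cell markers. The part of these cells in the values of the 10 genes was not tested.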

How the data were processed

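RNA-seq of whole liver was available for 3 WT_DDC and 3 Arid1a_KO_DDC libraries, grouped by the sample titles. The authors deposited log2 values of FPKM. The tools TopHat2 2.0.6 and Cufflinks and the builds mm10 and GRCm38 are named per the submitters' processing notes, without their roles, annotation or strand use. The lowest deposited value, -10, marks an FPKM of 0, and the offset behind it (0.000977) was removed before any other step.

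Genes with at least 1 FPKM in at least 3 of 6 libraries (11839) were tested with limma 3.58.1 in R 4.3.3 on log2(FPKM + 1) (eBayes with trend, two-sided, Benjamini-Hochberg, threshold 0.05). Such differences understate changes of low genes. Count models were not applied to FPKM, and the spread between libraries gives the precision. The members and lists were chosen with earlier results of these data known. Genes named are the 10 members, the 3 with the smallest p in each pathway list, the 2 most abundant of each cell type list, and the 3 closest in pattern to Hspa5 and to Ddit3. ERSE sites, overlapping genes and the genes marked so above were chosen after their values were seen, and the interaction term was added after seeing the data. Gene positions are from GENCODE M21 (GRCm38) and promoters from RefSeq (GRCm38.p6). The fit was tested on simulated data. Alternatives were other pseudocounts (0.1, 5), filters, scalings and eBayes settings, a replicate block, a library-number term, subsets of libraries and leaving out each library. Figures were drawn with matplotlib.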

Additional observations from a re-analysis of the deposited data

How the results depend on the processing

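Under 17 alternatives (16 for Trib3) none of the 10 genes passed the threshold, and 162 of 169 differences kept their sign. The 7 that did not were Ddit3 and Dnajb9 in the libraries L0602 to L0605 alone (-0.16 each) and 5 with a library left out, with ranges of -0.0043 to 0.24 for Hspa5, -0.069 to 0.61 for Ddit3, -0.072 to 0.42 for Dnajb9, -0.058 to 0.50 for Herpud1 and -0.98 to 0.20 for Asns. Over all genes, 16 higher and 42 lower calls became 10 higher with no filter, 33 higher with a library-number term and 26 higher in L0602 to L0605 alone. With a library left out, limma called 0 to 30 higher and 0 to 40 lower. Leaving out wild-type replicate 2 or 3 or knockout replicate 3 left 0 higher calls (465, 413 and 391 at an unadjusted p under 0.05), and leaving out knockout replicate 3 left 0 lower calls (527). The causes were not tested.

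With the replicate block limma called 0 genes higher and 0 lower (776 and 942 at an unadjusted p under 0.05). Deviations of same-numbered libraries correlated at 0.346, 0.133 and 0.0212 across genes for replicates 1 to 3, and replicate 3 of each genotype correlated better with another number, so the numbers were not taken to pair the samples. The number of fragments is unknown, so no counting error could be given.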
